A study of Homo sapiens with 24 samples.

Results

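The GPRC5 receptors GPRC5A, GPRC5B, GPRC5C and GPRC5D were read by 10 probe sets, out of 41091 probe sets that carried exactly 1 gene symbol and stood for 19775 genes. GPRC5A had 3 of these probe sets, GPRC5B had 4, GPRC5C had 2 and GPRC5D had 1. The members were taken by gene name, and no filter on low signal removed any of them. GPRC5A had drawn attention by its difference between induced and uninduced cells in the line HCT15 and by its unequal level before induction, so both are given here as descriptions without a test.

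The study asked what happens to gene expression when a working copy of the kinase MLK4 is supplied to colorectal cancer cells. HCT15 and HT115 are established colorectal cancer lines, and the labels state that both carry loss-of-function mutations of MLK4, a condition shared by every group. Each line came in a version with wild-type MLK4 (WT) inducible by tetracycline, and in a control version that induced a mutant instead: Y330H for HCT15 cells, E314K for HT115 cells. From every version came 3 arrays tagged Tet in the labels, from cells treated with tetracycline for 24 h, and 3 arrays without that tag, called untagged here, so that 24 arrays fell into 8 groups. What the untagged cells received, whether a version is 1 clone or a pool, and whether the 3 replicates were separate cultures are not given in the sources used here. The p-values therefore rest on the spread among these arrays alone, and that spread may be technical.

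The GPRC5 genes encode class C G protein-coupled receptors for which no ligand is established, hence the name orphan receptors. GPRC5A was first known as a gene induced by retinoic acid (RAIG1); it is best known in lung epithelium, where it acts as a tumour suppressor in mice, and it has been reported as raised in several carcinomas. GPRC5B is known from the nervous system and from fat tissue, GPRC5C from the kidney and from blood stem cells, and GPRC5D from plasma cells and hair follicles, where it is a surface target for treatment of myeloma.

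All values are deposited log2 signals from the RMA procedure, so that a difference of 1 is a 2-fold difference. Array medians lay at 5.55 to 5.61 on the 6 HT115 WT arrays and at 6.38 to 6.48 on the remaining 18, so deposited levels of the HT115 WT arrays were not set against those of other arrays. Pearson correlations between arrays of 1 group ran from 0.986 to 0.996. The probe set for MLK4 itself (gene symbol MAP3K21) differed between Tet and untagged by -0.15 in HCT15 WT, 0.08 in HCT15 Y330H, -0.19 in HT115 WT and 0.02 in HT115 E314K, with an SE of 0.14 each and limma adjusted p-values from 0.823 to 1. Whether that probe set reads the introduced sequence is not given, so it does not check the induction. Of 13 colon epithelium markers, 11 had a mean above the median of the single-symbol probe sets over the 18 arrays. Among them were the general epithelial genes EPCAM at 12.63, KRT8 at 12.59 and KRT18 at 13.35. The 2 below it were KRT20 at 6.23 and GPA33 at 6.67, which are more particular to the intestine. Other intestinal genes were above it, with CDX2 at 9.69, VIL1 at 9.18, LGALS4 at 7.92 and CDX1 at 7.57. These means pool HCT15 with HT115 E314K and describe neither line alone. On the 6 HT115 WT arrays, on their own scale, 0 of the 13 were below the median, with KRT20 at 10.16 and GPA33 at 8.30. All 6 plasma cell markers and all 6 hair matrix markers measured had a mean below the median in both sets of arrays.

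Across the 4 inductions, GPRC5A in HCT15 WT was the member with the largest difference. It was 2.91 on the log2 scale or 7.5-fold (SE 0.34, n = 3 arrays per group). That SE uses a spread shared by all 8 groups. With only the arrays compared in the fit, the SE was 0.51. The 3 GPRC5A probe sets were the 3 of 10 family probe sets whose Tet arrays all lay above the untagged arrays in HCT15 WT. Of all probe sets 7.14% were separate upwards and 6.63% downwards there, and nothing is read from the comparison because GPRC5A was chosen on it. No GPRC5B, GPRC5C or GPRC5D probe set had separate groups in that induction. GPRC5A differed by -0.03 in HCT15 Y330H, 0.01 in HT115 E314K and 0.12 in HT115 WT on its brightest probe set, in each case with overlapping groups.

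GPRC5A lies on chromosome 12. Its brightest probe set, 212444_at, read 8.51, 6.99 and 9.15 on the untagged HCT15 WT arrays numbered 1, 2 and 3. The Tet arrays of the same numbers read 11.69, 10.93 and 10.74. All Tet arrays lay above all untagged arrays, and the untagged arrays were farther apart than the Tet arrays. The group means were 8.21 ± 1.11 and 11.12 ± 0.50 (SD, n = 3). Taken by number, the differences were 3.18, 3.94 and 1.60, largest for number 2, whose untagged array was the lowest.

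**Figure D1:**
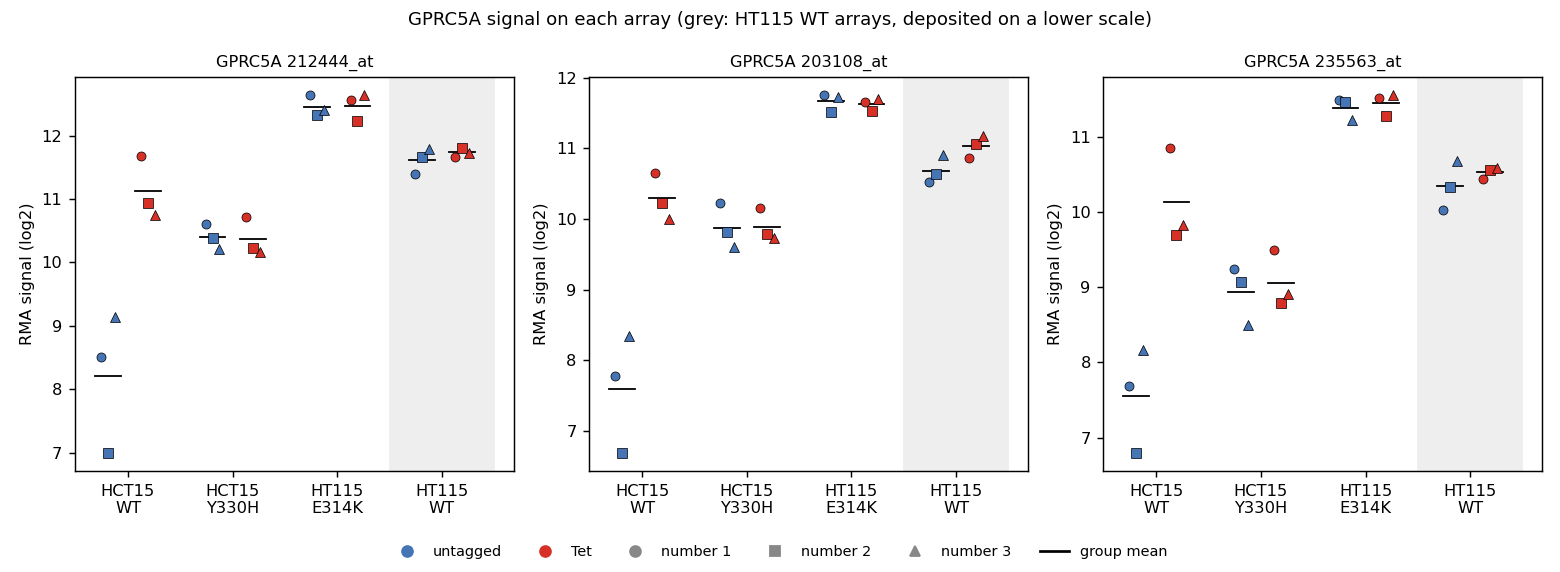
RMA signal (log2) of the 3 GPRC5A probe sets on each of the 24 arrays, with untagged arrays in blue, Tet arrays in red, marker shapes for the array number and bars for group means; the HT115 WT arrays, deposited on a lower scale, have a grey ground. On 212444_at the untagged HCT15 WT arrays spread from 6.99 to 9.15 and lie below every other HCT15 array.

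The remaining GPRC5A probe sets gave the same order of the untagged HCT15 WT arrays, with number 2 lowest and number 3 highest. On 203108_at these arrays read 7.77, 6.69 and 8.34 in the order of their numbers, and the Tet arrays read 10.65, 10.23 and 10.00. The difference was 2.69 (SE 0.27, 6.46-fold). On 235563_at the untagged arrays read 7.69, 6.79 and 8.17 and the Tet arrays 10.86, 9.70 and 9.83, a difference of 2.58 (SE 0.30, 5.97-fold). All 3 probe sets had separate groups, and the difference was smallest at number 3 on each, at 1.60, 1.66 and 1.66.

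GPRC5A varied widely among the HCT15 WT arrays, without Tet and with it. It was chosen partly for its spread before induction, so the ranks of its SD are a description and nothing is read from them. The SD of 212444_at over the 3 untagged arrays was 1.11. The median SD was 0.178 over 41091 probe sets, of which 84 had an SD above that of 212444_at. Without array 2 the SD of 212444_at was 0.452, and without array 1 it was 1.52. Its highest and lowest untagged arrays were 4.46-fold apart. For 203108_at the SD was 0.84, and 193 probe sets had a larger one. For 235563_at it was 0.70, and 402 had a larger one. Among the Tet arrays of HCT15 WT the SDs of 212444_at, 203108_at and 235563_at were 0.50, 0.33 and 0.63, against a median of 0.160. The spread on 235563_at was thus nearly as wide with Tet as without. In the untagged groups of HCT15 Y330H, HT115 E314K and HT115 WT the SD was 0.20, 0.16 and 0.20 on 212444_at, 0.32, 0.13 and 0.20 on 203108_at, and 0.39, 0.14 and 0.32 on 235563_at. Without untagged array 2 the HCT15 WT difference on 212444_at was 2.29, and without untagged array 3 it was 3.37.

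The ACTB probe sets at the 3' and 5' ends of the transcript, a sign of RNA quality, differed by 1.18 on untagged and 0.93 on Tet array 1 of HCT15 WT, and by 0.30 to 0.65 on all other arrays. Without both of those arrays the GPRC5A difference was 2.77. Tet array 1 was the highest HCT15 WT Tet array on each GPRC5A probe set, and without it alone the difference was 2.62. Untagged array 2, the lowest in GPRC5A, had an ACTB value of 0.48. Whether RNA quality had a part was not tested. In bulk RNA, a change in the share of cells that carry a transcript and a change in its amount per cell cannot be told apart.

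In HCT15 Y330H, GPRC5A was above its level in untagged HCT15 WT with and without Tet. The untagged Y330H arrays read 10.61, 10.39 and 10.21 on 212444_at and the Tet arrays 10.72, 10.22 and 10.17. These 2 groups overlapped, and their means were 10.40 ± 0.20 and 10.37 ± 0.30 (SD, n = 3). The untagged WT arrays all lay below the untagged Y330H arrays, with differences of -2.19, -2.28 and -1.38 on 212444_at, 203108_at and 235563_at. The 3 WT Tet arrays read 10.74 to 11.69, above the 10.17 to 10.72 of all 6 Y330H arrays, and their mean was 0.735 higher. On 203108_at the WT Tet arrays (10.00 to 10.65) overlapped the Y330H arrays (9.60 to 10.22). On 235563_at they did not, at 9.70 to 10.86 against 8.49 to 9.49, with a mean 1.13 higher.

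In HT115, GPRC5A differed little between Tet and untagged arrays. Its level was high there: 212444_at lay above 97.6% to 99.1% of the single-symbol probe sets of each HT115 array. On the untagged HCT15 WT arrays it lay above 50.8% to 77.0%. Whether the high level limited a rise was not tested. HT115 E314K read 12.64, 12.34 and 12.41 without the tag and 12.56, 12.23 and 12.64 with it. HT115 WT, on its own scale, read 11.39, 11.67 and 11.79 untagged and 11.66, 11.81 and 11.73 with Tet, a difference of 0.12 (SE 0.34). The groups overlapped in both versions. In HT115 WT, 203108_at differed by 0.35 (SE 0.27) and 235563_at by 0.18 (SE 0.30). For 203108_at the differences by number were 0.34, 0.43 and 0.28, and the lowest Tet array, at 10.86, was just below the highest untagged array, at 10.90.

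On the 18 arrays of 1 scale, the order of the untagged GPRC5A means was HCT15 WT, HCT15 Y330H and HT115 E314K on all 3 probe sets. HCT15 Y330H minus HT115 E314K was -2.06 on 212444_at, -1.79 on 203108_at and -2.45 on 235563_at, and these neighbours did not overlap. Measured from each array's own median of the single-symbol probe sets, the means of 212444_at were 1.30 in untagged HCT15 WT, 4.20 with Tet, 3.50 and 3.47 in HCT15 Y330H, and 5.56 and 5.56 in HT115 E314K, each pair untagged first. Untagged HCT15 WT thus had the lowest mean of these 6 groups.

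**Figure D2:**
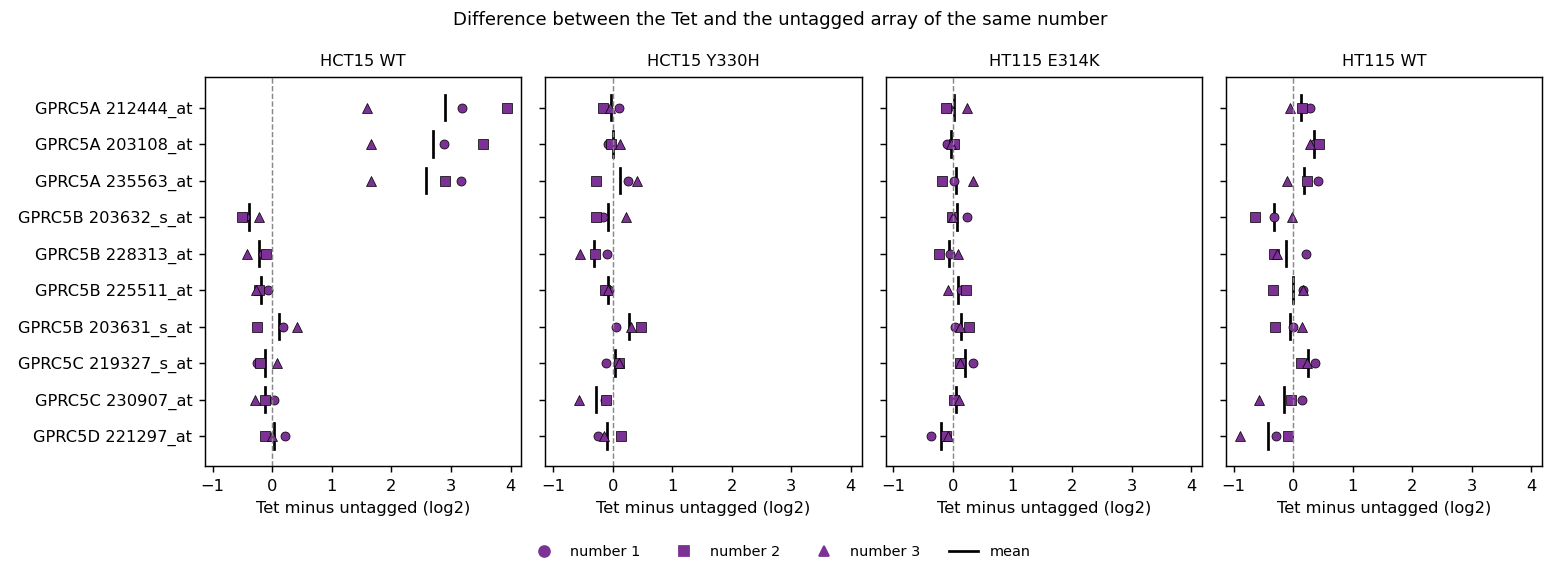
Tet minus untagged difference (log2) of the 10 family probe sets in each induction, taken between the arrays of the same number, with marker shapes for the number and black ticks for the mean. The means of the 3 GPRC5A probe sets lie between 2.58 and 2.91 in HCT15 WT, and all remaining means lie between -0.42 and 0.35.

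GPRC5B behaved differently from GPRC5A: it was higher, not lower, in untagged HCT15 WT than in untagged HCT15 Y330H. The comparison of untagged groups was not used to choose GPRC5B, GPRC5C or GPRC5D and was therefore tested. GPRC5B lies on chromosome 16. Of the genes tested, which leave out GPRC5A, it alone had probe sets past the limma test, so its promoter is shown. Promoters of GPRC5A and GPRC5C were not among the sequences used here. The capitals mark the single match to AGGTCA, the half-site read by retinoid receptors, starting at position -234 from the gene start, on the gene's own strand. The sequence is the 250 bases before the gene start from RefSeq, build GRCh38.p14, chr16:19885635-19885884, minus strand.
GPRC5B: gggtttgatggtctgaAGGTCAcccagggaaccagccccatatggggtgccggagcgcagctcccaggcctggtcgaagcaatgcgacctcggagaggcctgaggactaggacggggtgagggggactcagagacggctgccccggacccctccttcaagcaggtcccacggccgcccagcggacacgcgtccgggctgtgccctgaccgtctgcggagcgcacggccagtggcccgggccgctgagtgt
AGGTCA, searched on both strands, occurred in 12.1% of 35116 such windows, so that its presence is a description and not a site. TGANTCA, the AP-1 letters, and TGACGTCA, the CRE letters, had no match in it and occurred in 6.57% and 1.65% of windows. The GPRC5D window held none of these motifs.

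The brightest GPRC5B probe set, 203632_s_at, read 9.13, 8.86 and 8.15 on the untagged HCT15 WT arrays and 6.78, 6.71 and 6.70 on the untagged Y330H arrays. The groups did not overlap, and WT was 3.96-fold higher, a log2 difference of 1.99 (SE 0.22, limma adjusted p = 1.87e-05). That fit shared its spread over all 8 groups. With only the arrays compared in the fit, the same difference had an SE of 0.23 and a limma adjusted p of 0.0192. WT was also higher on 203631_s_at, by 1.20 (SE 0.23, limma adjusted p = 0.00328), and on 225511_at, by 0.81 (SE 0.16, limma adjusted p = 0.00386). On the remaining one, 228313_at, the difference was 0.17 (SE 0.14, limma adjusted p = 0.604) and the groups overlapped. Of the 7 probe sets of GPRC5B, GPRC5C and GPRC5D, 3 passed the test in this comparison, all of GPRC5B and all higher in WT. Of all probe sets 5.48% passed it, 2.89% higher and 2.59% lower.

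GPRC5B was lower in untagged HCT15 Y330H than in untagged HT115 E314K. On 203632_s_at the HT115 E314K arrays read 7.47, 7.99 and 7.98, all above the HCT15 Y330H arrays, and the difference was -1.09 (SE 0.22, limma adjusted p = 0.000546). On 225511_at it was -0.48 (SE 0.16, limma adjusted p = 0.0279). On 203631_s_at it was -0.61 (limma adjusted p = 0.0512) and on 228313_at -0.03 (limma adjusted p = 0.897). Of the same 7 probe sets 2 passed, both lower, against 30.5% of all probe sets (15.7% higher and 14.8% lower). On 203632_s_at the order of the untagged means was therefore HCT15 Y330H at 6.73, HT115 E314K at 7.81 and HCT15 WT at 8.71, which differs from the order for GPRC5A.

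**Figure D3:**
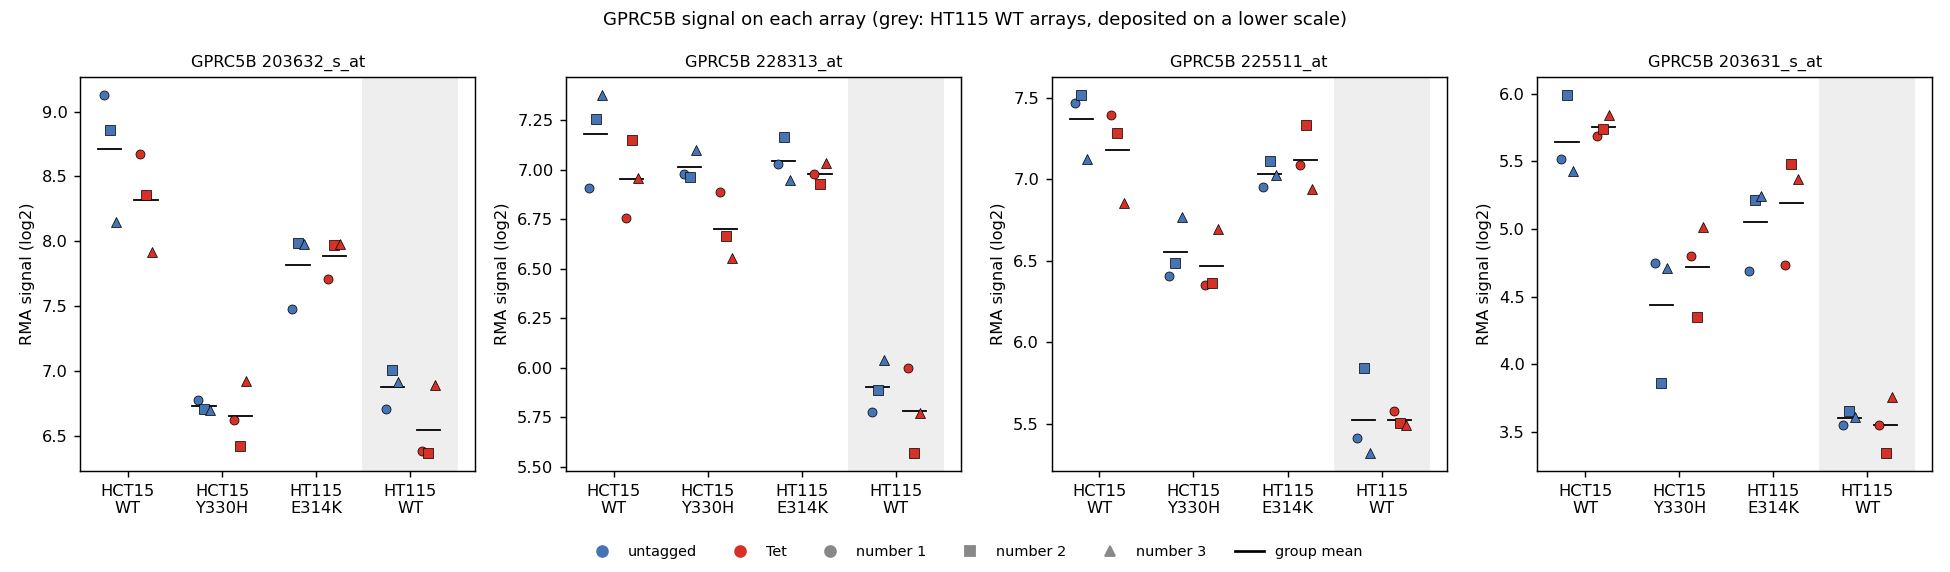
RMA signal (log2) of the 4 GPRC5B probe sets on each of the 24 arrays, with untagged arrays in blue, Tet arrays in red and bars for group means; the HT115 WT arrays have a grey ground because their scale is lower. On 203632_s_at the HCT15 WT arrays lie between 7.92 and 9.13, all above the HCT15 Y330H arrays at 6.42 to 6.92.

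With Tet, GPRC5B kept overlapping groups in HCT15 WT. The Tet arrays read 8.67, 8.36 and 7.92 on 203632_s_at, each below the untagged array of its number, by -0.46, -0.50 and -0.23. The mean difference was -0.40 (SE 0.22). It was -0.19 without untagged array 1, -0.20 without Tet array 3 and -0.68 without untagged array 3. In HT115 WT the untagged arrays read 6.70, 7.01 and 6.91 and the Tet arrays 6.38, 6.36 and 6.89, a difference of -0.33 (SE 0.22). These groups overlapped through Tet array 3. The differences were -0.07 in HCT15 Y330H, where the Tet arrays read 6.62, 6.42 and 6.92, and 0.08 in HT115 E314K, where they read 7.71, 7.97 and 7.98. Over all 4 probe sets and inductions the GPRC5B differences ran from -0.40 to 0.28. The single case of separate groups was 228313_at in HCT15 Y330H, at -0.31 (SE 0.14), with untagged arrays at 6.98, 6.96 and 7.10 and Tet arrays at 6.89, 6.66 and 6.56.

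GPRC5C, on chromosome 17, differed by at most 0.27 in size between Tet and untagged in any induction. On 219327_s_at, its brightest probe set, the HT115 WT arrays read 6.88, 7.01 and 6.93 untagged and 7.25, 7.14 and 7.17 with Tet. These groups were separate, with a difference of 0.24 (SE 0.19). On 230907_at the same induction gave -0.16 (SE 0.14), the opposite direction, with overlapping groups. In HCT15 WT both probe sets overlapped, at -0.13 and -0.12. The HCT15 WT arrays read 7.96, 8.21 and 7.81 untagged and 7.71, 8.004 and 7.89 with Tet on 219327_s_at.

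The 2 probe sets of GPRC5C did not separate together in any version. On 230907_at the HCT15 Y330H Tet arrays (6.34, 6.40 and 6.27) lay below the untagged ones (6.47, 6.52 and 6.83), a difference of -0.27 (SE 0.14). The HT115 E314K Tet arrays (6.59, 6.57 and 6.58) lay above the untagged ones (6.55, 6.56 and 6.49) by 0.05 (SE 0.14), a gap smaller than the SE. On 219327_s_at both of these inductions overlapped, with differences of 0.04 and 0.20.

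Between untagged groups no GPRC5C probe set passed the test. HCT15 WT minus HCT15 Y330H was 0.51 on 219327_s_at (SE 0.19, limma adjusted p = 0.136) and 0.02 on 230907_at (limma adjusted p = 0.978). The Y330H arrays read 7.99, 7.25 and 7.21 on 219327_s_at, so that array 1 lay among the WT arrays and the other two lay below them. Without that array the difference was 0.76 (limma adjusted p = 0.0162). HCT15 Y330H minus HT115 E314K was -0.49 (SE 0.19, limma adjusted p = 0.059), with HT115 E314K arrays at 7.68, 7.97 and 8.27. Without Y330H array 1 it was -0.74 (limma adjusted p = 0.00303), and without HT115 E314K array 1 it was -0.63 (limma adjusted p = 0.0251).

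GPRC5D lies next to GPRC5A on chromosome 12 among protein-coding genes, and its signal was low. It was below the median of the single-symbol probe sets on all 24 arrays. No detection call was used, so whether the transcript was present is not read from these values. In HCT15 WT the arrays read 5.46, 5.90 and 5.87 untagged and 5.67, 5.78 and 5.86 with Tet, a difference of 0.03 (SE 0.18) in the cells where GPRC5A differed most. In HT115 WT they read 5.05, 4.82 and 4.94 untagged and 4.77, 4.73 and 4.06 with Tet. These groups were separate, with a difference of -0.42 (SE 0.18), and Tet array 3 was the lowest. Without that array the difference was -0.19. In HCT15 Y330H and HT115 E314K the differences were -0.09 and -0.19 with overlap.

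Between untagged groups GPRC5D did not pass the test. The HCT15 Y330H arrays, at 6.19, 5.99 and 5.98, lay above the HCT15 WT arrays, and WT minus Y330H was -0.31 (SE 0.18, limma adjusted p = 0.402). HCT15 Y330H minus HT115 E314K was 0.00 (SE 0.18, limma adjusted p = 0.992), with HT115 E314K arrays at 6.45, 5.83 and 5.87.

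**Figure D4:**
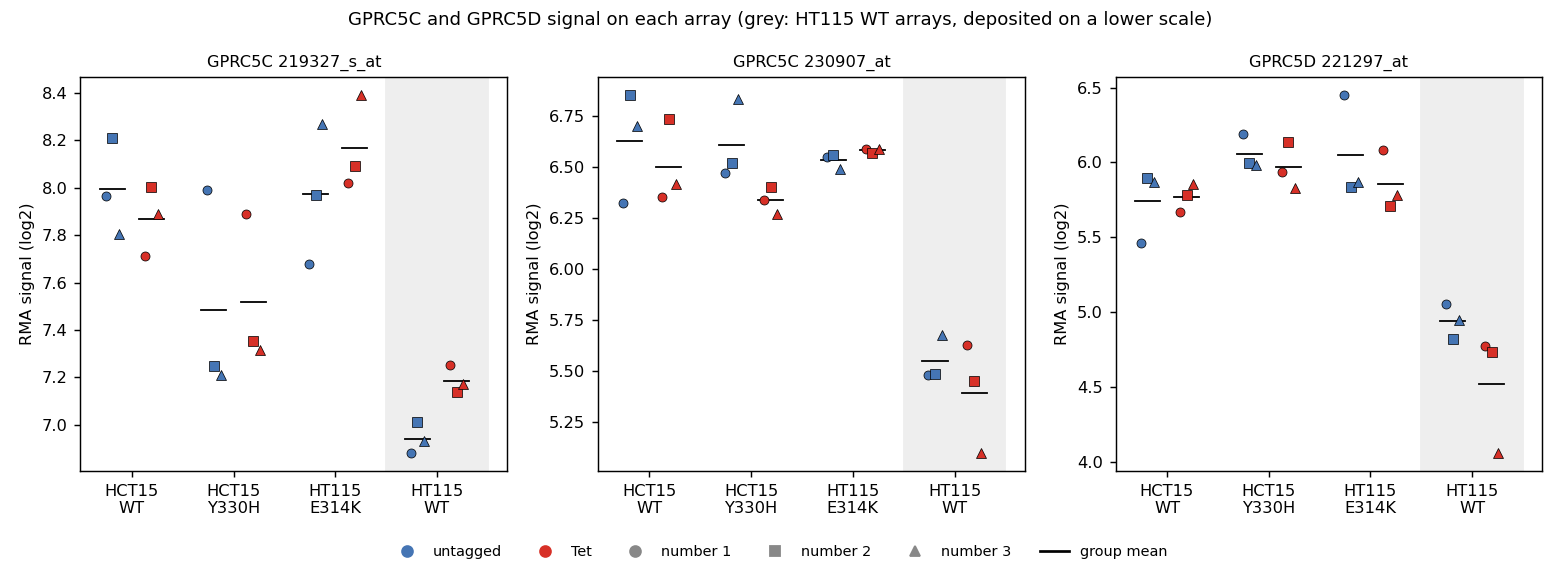
RMA signal (log2) of the 2 GPRC5C probe sets and the GPRC5D probe set on each of the 24 arrays, with untagged arrays in blue, Tet arrays in red, marker shapes for the array number and bars for group means; the HT115 WT arrays have a grey ground. GPRC5D lies between 5.46 and 5.90 on all HCT15 WT arrays, with and without Tet.

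Separate groups in the remaining inductions were counted over the 10 family probe sets, beside the shares of all probe sets. None of them was of GPRC5A, and nothing is read from such small counts. HCT15 Y330H had 0 higher and 2 lower, beside 1.97% and 4.99% of all probe sets. HT115 WT had 1 higher and 1 lower, beside 7.23% and 6.88%. HT115 E314K had 1 higher and 0 lower, beside 2.93% and 3.28%. The median difference over the 10 probe sets was -0.05, -0.05, -0.03 and 0.05 in HCT15 WT, HCT15 Y330H, HT115 WT and HT115 E314K, beside medians of -0.02, -0.01, -0.01 and 0.01 over all probe sets. In the whole table, limma called 0.628% of probe sets in HCT15 WT (258) and 0.134% in HT115 WT (55). It called 0 in HCT15 Y330H and 0 in HT115 E314K, where 1163 and 761 had an unadjusted p under 0.05. The shares with an unadjusted p under 0.05 were 8.99% in HCT15 WT, 2.83% in HCT15 Y330H, 7.02% in HT115 WT and 1.85% in HT115 E314K.

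Since GPRC5A is known as a retinoic acid response gene, other genes of that response were read from a list, each by its brightest probe set. None of the 15 measured genes of 19 listed passed the limma test in any induction in the main fit, which did not pair arrays. Of all probe sets 0.628% passed in HCT15 WT, 0.134% in HT115 WT and 0% in the mutant versions. List genes with an unadjusted p under 0.05 numbered 3 in HCT15 WT, 0 in HCT15 Y330H, 2 in HT115 WT and 1 in HT115 E314K. The shares of all probe sets were 8.99%, 2.83%, 7.02% and 1.85% in the same order. In HCT15 WT the median difference was -0.11, beside -0.02 over all probe sets. The smallest p there belonged to RARRES1, a retinoid-induced membrane protein, at -0.52 (SE 0.15, limma adjusted p = 0.154). CD38, a surface enzyme induced by retinoic acid, was at -0.40 (limma adjusted p = 0.252). In HT115 WT the smallest belonged to TGM2, a transglutaminase, at -0.40 (limma adjusted p = 0.589).

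In the main fit no list gene passed among the retinoid receptors and enzymes of retinoic acid synthesis, of which 12 of 13 were measured. In HCT15 WT the receptor gene RARA was at 0.36 (limma adjusted p = 0.305) and ALDH1A3, which makes retinoic acid, at 0.82 (SE 0.31, limma adjusted p = 0.357). Other class C receptors were measured for 14 of 18 genes, with none called. Their medians were -0.14 in HCT15 WT and -0.09 in HT115 WT, and the calcium-sensing receptor CASR was at -0.30 in HCT15 WT (limma adjusted p = 0.554). Targets of NF-kB and STAT3, the pathways that GPRC5A has been reported to restrain, were measured for 12 of 14 genes. TNFAIP3, an inhibitor of NF-kB signalling, was at 0.54 in HCT15 WT (limma adjusted p = 0.390).

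Across these 4 lists, 0 of 53 genes were called by limma in each induction. In HCT15 WT, HCT15 Y330H, HT115 WT and HT115 E314K, 0.628%, 0%, 0.134% and 0% of all probe sets were called. With such shares, 0 calls among 53 genes do not show that a response was absent. In the same order 7, 4, 6 and 1 of the 53 had an unadjusted p under 0.05. Of all probe sets 8.99%, 2.83%, 7.02% and 1.85% did. The replicate number was also used as a block, though the sources used here do not state that same-numbered arrays are pairs. With that block 5 of 53 genes were called in HCT15 WT, where 4.09% of all probe sets were. In that fit RARRES2, which encodes the chemoattractant chemerin, fell by 1.05 (SE 0.13, limma adjusted p = 0.000972) and ALDH1A3 rose by 0.82 (SE 0.12, limma adjusted p = 0.00185). CRABP2, a retinoic acid carrier, rose by 0.54 (limma adjusted p = 0.0358) and TNFAIP3 by 0.54 (limma adjusted p = 0.0345). CD38 fell by 0.40 (limma adjusted p = 0.0488). The called genes thus differed in direction. The block called 0 list genes in the other inductions. With the arrays weighted by their quality, 7 of 53 were called in HCT15 WT, beside 5.58% of all probe sets. Lower were RARRES1 at -0.63 (limma adjusted p = 0.00441), CD38 at -0.46 (limma adjusted p = 0.0106) and CASR at -0.44 (limma adjusted p = 0.0265). RARB at -0.41 (limma adjusted p = 0.0317) and GRM5 at -0.38 (limma adjusted p = 0.0406) were lower too. Higher were RARA at 0.44 (limma adjusted p = 0.0189) and TNFAIP3 at 0.63 (limma adjusted p = 0.0279). CD38 and TNFAIP3 were called in both of these fits, while RARRES2, ALDH1A3 and CRABP2 were not called with array weights.

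Among 13 colon epithelium markers, KRT19 rose by 0.70 (limma adjusted p = 0.00334) and KRT20, a keratin of differentiated colon cells, by 1.497 (limma adjusted p = 0.00585) in HCT15 WT. None of the other 11 passed there, and none of the 13 in the other inductions. Of all probe sets 0.628% passed in HCT15 WT, 0.134% in HT115 WT and 0% in the mutant versions. With the replicate block 3 more passed in HCT15 WT, where 4.09% of all probe sets did. VIL1, a microvillus protein, fell by 0.72 (limma adjusted p = 0.00163). The intestinal transcription factor gene CDX2 fell by 0.47 (limma adjusted p = 0.00893), and CLDN7 of the tight junction rose by 0.47 (limma adjusted p = 0.0417). The part of these markers in the GPRC5A difference was not tested. No marker of plasma cells, hair matrix, fibroblasts, leukocytes, endothelium or neural cells passed in any induction in this fit. With array weights the leukocyte marker ITGB2 was called in HCT15 WT, at -0.36 (limma adjusted p = 0.035).

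The genes whose levels were most like GPRC5A were ranked by Pearson's r with 212444_at, 1 probe set per gene. These values describe the arrays, which share groups, and carry no test. Over the 12 HCT15 arrays the 5 highest were SLC38A1 (0.936), ITGA2 (0.901), EMP1 (0.896), IL18 (0.885) and CAST (0.870). The remaining GPRC5A probe sets had 0.988 and 0.957, while GPRC5B 203632_s_at had -0.42. Over all 24 arrays, each set to its own median, the highest were PHLDB2 (0.939), THSD4 (0.924), LHFPL2 (0.924), SYBU (0.923) and SLC38A1 (0.921). After group means were removed they were PHLDB2 (0.809), EMP1 (0.770), EREG (0.757), TGFA (0.757) and VIT (0.701).

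The values of 3 of these genes are given as a description, since they were chosen for their likeness to GPRC5A on these arrays. EREG, which encodes the growth factor epiregulin, read 8.62, 5.80 and 9.77 on the untagged arrays and 11.11, 10.52 and 11.26 with Tet. PHLDB2 read 9.97, 9.09 and 9.88 untagged and 11.51, 10.91 and 10.91 with Tet. EMP1, an epithelial membrane protein gene, read 8.06, 6.52 and 7.72 untagged and 9.52, 8.13 and 8.74 with Tet. Untagged array 2 was the lowest in each of them, whereas ITGA2 read 9.25, 9.28 and 9.71 and was lowest on array 1. The sizes were unequal, with differences of 2.90 for EREG, 1.46 for PHLDB2, 1.36 for EMP1 and 0.24 for SLC38A1 in HCT15 WT.

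EMP1 also lies near GPRC5A, as the fifth protein-coding gene along chromosome 12 on the side of GPRC5D. Of the 5 protein-coding genes on each side, DDX47 had no single-symbol probe set, and the 8 genes measured besides EMP1 differed by -0.18 to 0.14 between Tet and untagged in HCT15 WT. The lowest limma adjusted p among these 8 was 0.794. EMP1 was at 1.36 (SE 0.34). Untagged HCT15 WT minus HCT15 Y330H was -1.22 (SE 0.34) for EMP1, which was chosen for its likeness to GPRC5A on these arrays and is therefore given without a test. The 8 others ran from -0.31 to 0.27 there, with a lowest limma adjusted p of 0.212. The neighbours were looked up after the values of GPRC5A and EMP1 had been seen.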

How the data were processed

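Per the labels' protocols, RNA of 24 samples was amplified with a NuGEN kit and read on Affymetrix U133 Plus arrays. Per the submitters' processing notes, RMA and Affymetrix Power Tools were used for the deposited log2 values; versions and detection calls are not given in the sources used here. Of 54675 probe sets, 41091 could be tied to exactly 1 gene symbol; 11777 had none and 1801 had more than 1. The 62 control probe sets were left out whichever of these classes they fell in. RMA summaries compress fold changes of weak probe sets, and the number of arrays limits the precision.

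Group means of all 8 groups were fitted with limma 3.58.1 in R 4.3.3 (lmFit, eBayes, 16 residual degrees of freedom), with Benjamini-Hochberg adjustment over the 41091 probe sets; adjusted p under 0.05 was called. The fit was run first on simulated data with known changes. The family's inductions and GPRC5A's base levels were not tested. Members and lists were chosen with earlier results of these data known. The named genes are all family probe sets, the list genes with the smallest p, and the 5 genes most like GPRC5A by each measure. Same-numbered HCT15 arrays deviated together (r from 0.320 to 0.750 over 6 pairs), and in HT115 r ran from -0.003 to 0.595. The main fit paired no arrays. The replicate block, an alternative fit, paired the arrays of the same number in both lines. Alternatives were quantile normalization, the brighter probe sets alone (means above the median), array weights, a trend in eBayes, 1 probe set per gene, the replicate block, only the arrays compared, other probe sets and each array left out. Promoters came from RefSeq and covered GPRC5B and GPRC5D.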

Additional observations from a re-analysis of the deposited data

How the results depend on the processing

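The GPRC5A difference in HCT15 WT ran from 2.29 to 3.66 over 18 alternatives, the latter with array weights. It was 2.91 with the replicate block (SE 0.29) and with only the arrays compared (SE 0.51). These fits, like the eBayes trend and the choices among probe sets tested, change the SE but cannot move a difference of group means. GPRC5A was chosen on this contrast, so nothing is read from its kept direction. In HT115 WT its 0.12 became 0.35 on probe set 203108_at. With the replicate block, called list genes in HCT15 WT went from 0 to 5, and all called probe sets from 258 to 1682. In HT115 WT, where r between same-numbered arrays ran from -0.003 to 0.24, the block moved calls from 55 to 304. Array weights gave 7 called list genes in HCT15 WT and 2294 called probe sets, and leaving out 1 array gave 0 to 1. GPRC5B in untagged HCT15 WT minus Y330H ran from 1.78 to 2.27 without 1 array and was 0.17 on 228313_at; in Y330H minus E314K it was -0.61 on 203631_s_at and -0.032 on 228313_at. GPRC5C in WT minus Y330H was 0.82 with array weights (limma adjusted p = 0.000319) and 0.37 to 0.76 without 1 array; in Y330H minus E314K it was -0.49 among the probe sets brighter than the median (limma adjusted p = 0.0414), -0.64 with array weights, -0.74 to -0.34 without 1 array and 0.077 on 230907_at. The GPRC5C induction difference in HT115 WT was -0.16 on 230907_at. GPRC5D in Y330H minus E314K was -0.010 after quantile normalization and -0.11 to 0.20 without 1 array. The causes were not tested. Weak probe sets such as that of GPRC5D limit what small differences can show.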
